A study of Mus musculus with 48 samples.

Results

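Rbm3 and Cirbp, the pair of cold-inducible RNA-binding proteins of the mouse, were followed in striatal RNA of 16 mice. They were taken by name as 2 of the 23420 genes counted, with all their exon bins, 33 of Rbm3 and 23 of Cirbp among 368092 bins. Bins divide the exons wherever the set of annotated transcripts covering them changes. The pair was chosen from earlier results of these data, by level, by shares of alternative bins and by how the genes moved together across mice. Those measures are therefore described. Tests are given only for genotype and sex and for relations to gene lists outside the choice. The tests use the same levels and shares, so they are not independent of how the pair was chosen.

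The mice were 8 carriers of a congenic segment of 112 kb (4 males, 4 females) and 8 wild-type C57BL/6J littermates (4 males, 4 females), at about 50 days of age, with no treatment named in the labels. As background, this segment is of DBA/2J origin and holds Hnrnph1, and the rest of the genome is C57BL/6J. Each sample was RNA from punches of 3 mm of both striatal sides, pooled per mouse, and is a mixture of cells, so fewer cells of a type and less RNA per cell cannot be told apart. Mice are named as in the column headings. Males were Sample_4671 to Sample_4734 and every female but Sample_4676 and Sample_4677 had a higher number, so sex cannot be told apart from whatever the numbers stand for.

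Both proteins hold an RNA recognition motif followed by a glycine-rich tail, bind many mRNAs and are made in larger amounts when a cell is mildly cooled. In the brain, RBM3 is known for protecting synapses after cooling, and CIRBP for binding mRNAs of the circadian clock. In mouse and human cells, the Rbm3 transcript can take up a cassette exon with premature stop codons, called a poison exon, which sends the mRNA to nonsense-mediated decay (NMD). The exon is skipped more at low temperature, and HNRNPH1 was reported in human cells to favour skipping. Hnrnp H proteins bind runs of G.

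Rbm3 lies on the minus strand at chrX:7716101-7723006 and Cirbp on the plus strand at chr10:79628730-79635531, both on NCBIM37 (mm9). Bins are numbered by rising coordinate, so bin 1 is the 3' end of Rbm3 and the 5' end of Cirbp. The poison exon of Rbm3 is bin 20, of 271 bases (chrX:7721301-7721571), between coding bins 23 and 18. It belongs to the NMD models Rbm3-006 and Rbm3-007 and to the retained-intron model Rbm3-009, and to no protein-coding model. The sequences below show how it interrupts the reading frame, with the first stop codon met in frame in capitals.
Rbm3 bin 23, last 30 bases (chrX:7721699-7721728): tcagatgcgatgagagctatgaatggagag
Rbm3 bin 20, first base to stop (chrX:7721509-7721571): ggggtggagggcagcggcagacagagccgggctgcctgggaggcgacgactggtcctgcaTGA
Rbm3 bin 18, first 30 bases (chrX:7721044-7721073): tccctggatgggcgccaaatccgagttgat
Joining bin 23 to bin 18 keeps the coding frame, and joining bin 23 to bin 20 puts a TGA at codon 91. The 210 coding bases before bin 20 end on a whole codon, and the TGA fills bases 61 to 63 of the exon. Bin 20 holds 9 runs of at least 3 G in 271 bases, and the coding bins shared by every protein-coding Rbm3 model hold 12 in 417 bases.

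Smaller coding choices lie further on in both genes. Bin 14 of Rbm3 is 3 bases long and depends on which of 2 neighbouring acceptors is used, giving proteins of 154 or 153 residues (Rbm3-003 and Rbm3-001). Cirbp has alternative 3' ends, which set its last residues. The upstream choice is bins 17 to 19 (Cirbp-001, 172 residues) and the downstream choice is bins 21 to 23 (Cirbp-005, 168 residues). In Cirbp-005, bin 21 is the last coding exon, and bins 22 and 23 make up the last exon. The acceptor pair is shown with bin 14 in capitals, and the ends with the stop codon in capitals.
Rbm3 bin 14 (chrX:7720438-7720470): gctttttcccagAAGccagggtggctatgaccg
Cirbp-001 end (chr10:79633727-79633743): ctacacacaacgagTAA
Cirbp-005 end (chr10:79635159-79635163): gaTGA

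Depth was even. Gene counts summed over 3 lanes were 73.1 to 82.0 M per mouse (M for the mega prefix) and bin counts 118 to 133 M. Rbm3 held 3952 to 5890 counts per mouse and Cirbp 3689 to 5954, so counting error is small beside the spread between mice. Levels are counts-per-million (CPM) after TMM scaling. The female Sample_4806 held only 2.67 CPM of Xist, the RNA that silences an X chromosome, where the other 7 females had 951 to 1549 CPM and the males 1.37 to 17.7 CPM. Its recorded sex is not borne out by this level, and it counted as a female wherever it was not left out. The punches held pan-MSN markers, genes of the medium spiny neurons of the striatum, at a summed 12870 to 16105 CPM, and none of the 14 was at 0.

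Rbm3 was higher on average in congenic mice, but the difference did not pass the test over all genes. Its level in congenic males was 77.0, 67.7, 58.0 and 54.2 CPM, and in congenic females 71.1, 70.5, 61.4 and 52.5 CPM. Wild-type males had 63.2, 55.6, 55.5 and 52.8 CPM, and wild-type females 58.7, 57.8, 56.8 and 55.3 CPM. The groups overlapped: 4 of 8 congenic mice lay above the highest wild-type mouse, and the lowest mouse of all was congenic.

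Congenic mice averaged 64.1 ± 8.85 CPM (SD, n = 8), and wild-type mice 57.0 ± 3.09 CPM (SD, n = 8). The log2 fold change was 0.17 (SE 0.07, 95% interval 0.02 to 0.32), with p = 0.0251 before and 0.999 after Benjamini-Hochberg adjustment in edgeR's quasi-likelihood test. No gene was called for genotype (0 of 16716 tested, 0%), and 1.53% had an unadjusted p under 0.05. Male and female means were the same to 3 digits, 60.5 ± 8.34 and 60.5 ± 6.87 CPM (SD, n = 8 each), and the 95% interval of the log2 fold change ran from -0.15 to 0.15. Rbm3 is X-linked, and without mice Sample_4804 and Sample_4806, the second of which is the female low in Xist, its sex value was 0.02.

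Cirbp showed the other arrangement, with no genotype difference beyond the spread and a lower average in males. Congenic males had 54.6, 50.6, 49.9 and 49.2 CPM, and congenic females 71.9, 63.2, 59.9 and 46.6 CPM. Wild-type males had 63.9, 49.5, 48.3 and 45.8 CPM, and wild-type females 60.4, 59.5, 57.1 and 55.9 CPM. Apart from male Sample_4712 (63.9 CPM) and female Sample_4739 (46.6 CPM), every male lay below every female, and those mice make the sexes overlap.

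Cirbp averaged 51.5 ± 5.58 CPM in males and 59.3 ± 7.11 CPM in females (SD, n = 8 each). The log2 fold change was -0.20 (SE 0.07, 95% interval -0.36 to -0.05), with p = 0.0131 and an edgeR adjusted p of 0.234. Of all genes, 0.138% were called for sex, and 14.7% had an unadjusted p under 0.05. By genotype, congenic mice averaged 55.7 ± 8.64 CPM of Cirbp (SD, n = 8), and wild-type mice 55.1 ± 6.47 CPM (SD, n = 8), with a 95% interval of the log2 fold change from -0.14 to 0.17. The genotype difference did not depend on sex beyond the spread for either gene, with an interaction of 0.02 for Rbm3 (95% interval -0.29 to 0.32) and -0.07 for Cirbp (-0.40 to 0.25).

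Markers of cortical excitatory neurons, which lie outside the striatum, had sex values of the same sign as Cirbp. Of 10 such genes, 9 were lower in males, with a median log2 fold change of -0.62, and none was called. At an unadjusted p under 0.05, 1 was lower and 1 was higher in males. Their summed level was 160 to 380 CPM in males and 173 to 404 CPM in females, and none was at 0. With the score of these genes as a covariate, the sex value of Cirbp was -0.14 with an adjusted p of 0.508.

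Several other marker lists also leaned to one sex, with none called, where 48% of all genes were higher in males. All 14 pan-MSN markers were higher in males, 6 of them at an unadjusted p under 0.05, with a median log2 fold change of 0.10 and a summed level of 13973 to 16105 CPM in males and 12870 to 15148 CPM in females. Of 7 microglial markers 6 were higher in males, 4 at an unadjusted p under 0.05, with a median of 0.10 and a summed 365 to 420 CPM in males and 335 to 390.1 CPM in females. All 6 ependymal markers and all 5 thalamic markers were lower in males, with medians of -0.25 and -0.10, and none had an unadjusted p under 0.05. Of 7 oligodendrocyte markers 6 were lower in males, with a median of -0.11, and 2 had an unadjusted p under 0.05. Of 6 endothelial markers 5 were higher in males, with a median of 0.06. The astrocyte and choroid plexus lists were mixed, with 3 of 7 and 3 of 6 higher in males. No marker of these lists was at 0. The part of these markers in the sex values of the pair was not tested, apart from the cortical score. By genotype, 1 of 10 cortical markers was positive (median -0.39), and all 7 oligodendrocyte markers were (median 0.05). Also positive were 7 of 14 pan-MSN, 6 of 7 microglial, 1 of 6 ependymal, 2 of 5 thalamic and 3 of 7 astrocyte markers. So were 4 of 6 choroid plexus and 2 of 6 endothelial markers. No marker had an unadjusted p under 0.05, where 51.1% of all genes were positive. Their part in the genotype values was likewise not tested, apart from the cortical score.

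**Figure D1:**
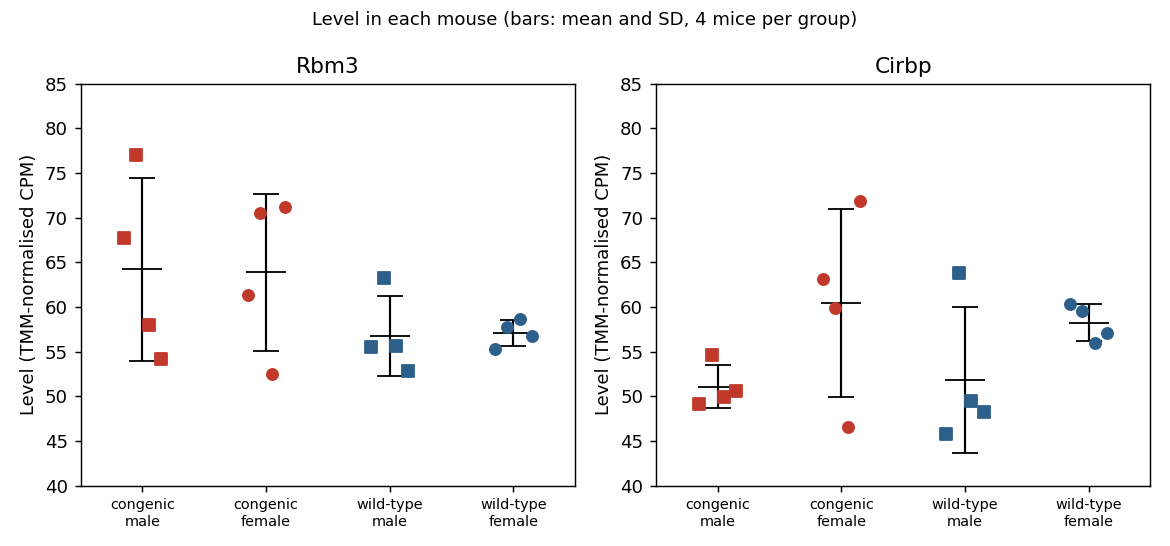
Level of Rbm3 (left) and Cirbp (right) in each mouse in TMM-normalised CPM, by genotype and sex, with the mean and SD of 4 mice; the axes start at 40 CPM. Congenic mice spread from 52.5 to 77.0 CPM for Rbm3 and wild-type mice from 52.8 to 63.2 CPM.

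Across the mice, Rbm3 and Cirbp tended to be high together. Over 16 mice the log2 levels had a Pearson r of 0.50 and a Spearman rho of 0.54. The r was 0.55 in congenic and 0.70 in wild-type mice, and 0.47 in males and 0.74 in females (n = 8 each). After genotype and sex were fitted out it was 0.66.

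Congenic female Sample_4804 was the highest mouse for Cirbp and the second for Rbm3, and without it r was 0.38. Congenic male Sample_4673, the highest for Rbm3, had a middling Cirbp of 54.6 CPM, and without it r was 0.62. Without both, which are the mice farthest from the Rbm3 median, r was 0.47. When Rbm3 was read from a lane and Cirbp from another, r was 0.42 to 0.67. Among 11707 genes with a mean of at least 5 CPM, 2.26% had an r with Rbm3 as high as that of Cirbp, and 6.41% an r with Cirbp as high as that of Rbm3.

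**Figure D2:**
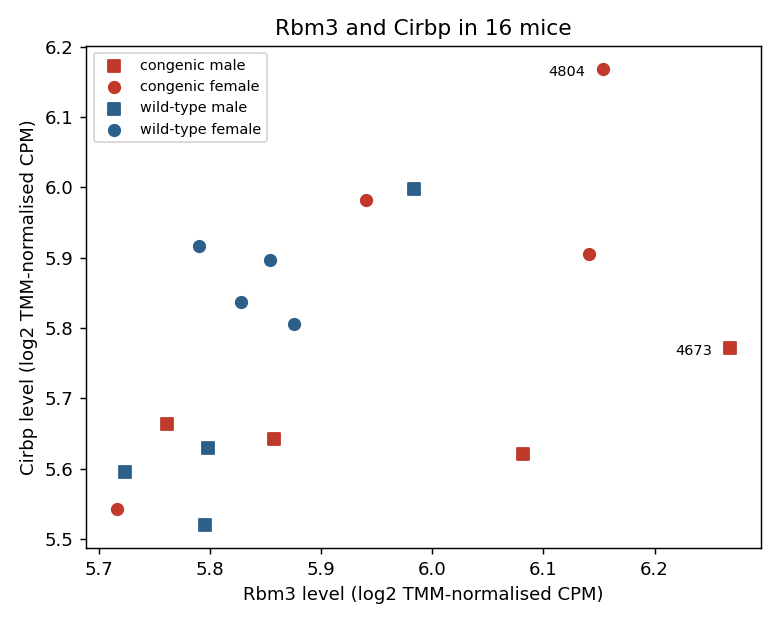
Level of Cirbp against Rbm3 in log2 TMM-normalised CPM, a point per mouse, coloured by genotype with squares for males and circles for females. Mice Sample_4804 and Sample_4673, farthest from the Rbm3 median, are marked; r was 0.50 with them and 0.47 without.

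Other genes tracked each member more closely than the pair tracked each other. Among the genes most like Rbm3 were Usp3, AW011738, Gm1976, Psmd8, Slc25a16, Dctd and Gtdc1, with r of 0.71 to 0.79 over 16 mice. Among the most opposed were Susd5, Rbm28 and Srrm3, with r of -0.78 to -0.73. The 8 most like Cirbp were Sephs1, Fancg, Hmgb3, Zfp956, Parn, Cdk5rap3, Slc7a6 and Nln, with r of 0.84 to 0.88. The 4 most opposed to Cirbp were 1500004A13Rik, Bicd2, Itsn1 and Ppm1b, with r of -0.91 to -0.86. An r past 0.7 in size was reached by 20 genes with Rbm3 and by 366 with Cirbp.

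Counts over the bins showed which annotated parts of each gene were present in striatum. The coding bins 13, 17, 15 and 18 of Rbm3 held the most counts, 1037 to 1390 per mouse on average. In Cirbp the most lay in bin 19, the 3' UTR of the upstream last exon, and in coding bins 8 and 17, with 1113, 1035 and 954. A read that spans several bins is counted in each, which raises short bins, so density is compared only between bins of like length. The poison exon, bin 20, had a mean of 664 counts per mouse, or 2.45 counts per base. Bin 19, of 227 bases, the intron between the poison exon and bin 18, had 2.44 counts per base. Bin 24, of 275 bases, an intron nearer the 5' end, had 0.315.

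Counts over bin 20 can thus come from spliced poison exon or from RNA that keeps all or part of the intron (bins 19 to 22), and bin counts cannot tell these apart. Over 16 mice the share of bin 20 had an r of 0.90 with that of bin 19, and of 0.34 and 0.42 with those of bins 21 and 22. Coding bins 18 and 23 on the sides of this stretch had 10.4 and 7.22 counts per base. They are shorter, at 100 and 107 bases, so these densities cannot be compared with that of bin 20. In Cirbp the counterpart was bin 16, an intron of 217 bases before the last coding exon, at 1.71 counts per base, against 0.0428 in bin 14, another intron of 187 bases.

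The first exon of Rbm3, bins 26 to 33 with 243 bases of 5' UTR, held almost nothing. Bins 26 to 31 were at 0 in every mouse, and bins 32 and 33 averaged 0.0625 and 0.188 counts. Next to it, bin 25, where the coding sequence begins, averaged 415 counts. Bins 26 to 30 and 8 bases of bin 31 lie inside an exon of 2900002K06Rik, an antisense gene whose own bins held 0 to 25 counts per mouse. The other bases of bin 31 and bins 32 and 33 lie outside its exons and were nearly empty too. What empties the bins was not tested.

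**Figure D3:**
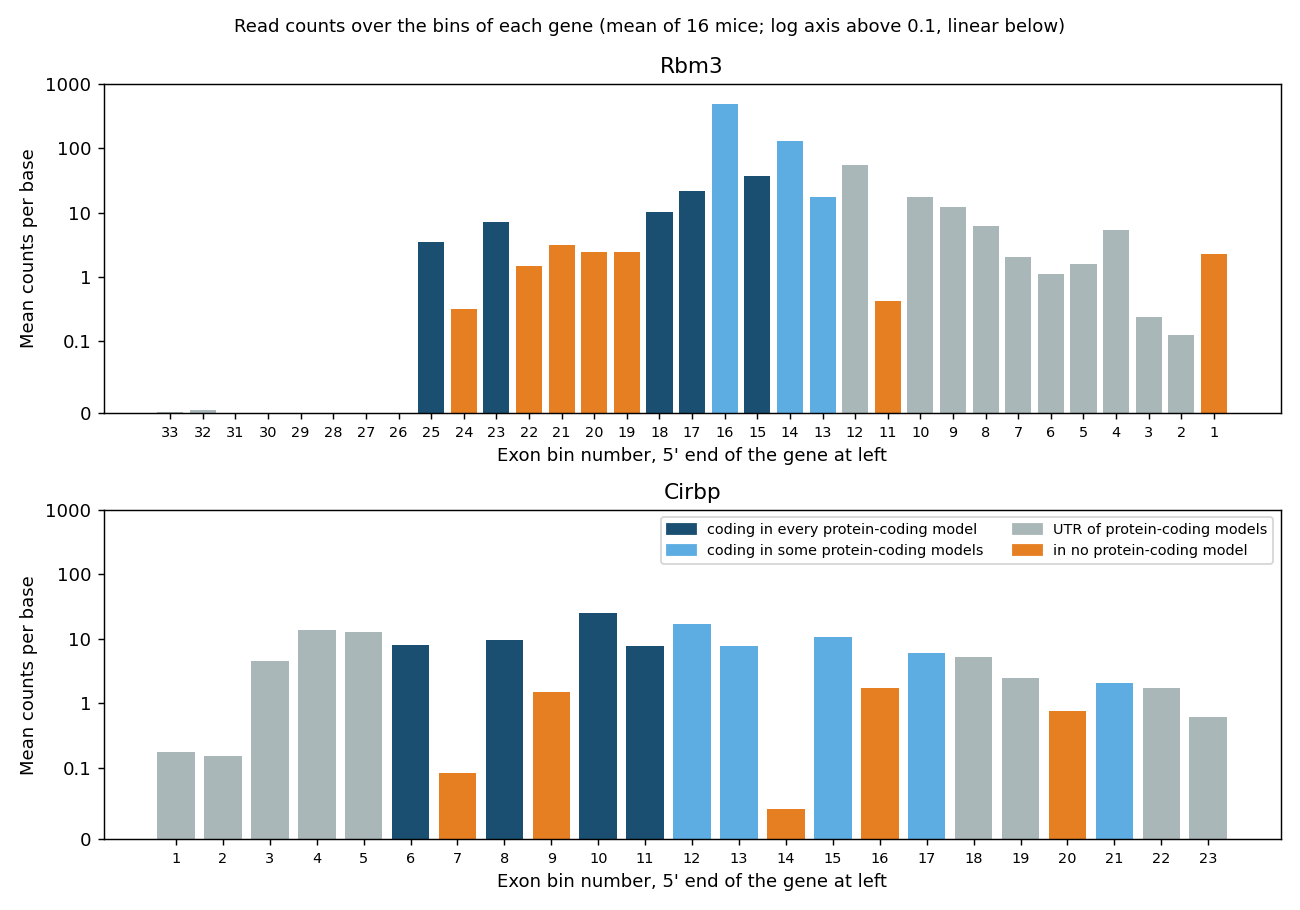
Mean counts per base in every bin of Rbm3 (top) and Cirbp (bottom), 16 mice, from the 5' end at left; the axis is logarithmic above 0.1 and linear below. Orange bars, in no protein-coding model, stand at 2.45 for the poison exon (bin 20) and 1.71 for the retained intron of Cirbp (bin 16), and the first exon of Rbm3 (bins 26 to 33) is empty.

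No bin of either gene passed the test for genotype. Of 25 Rbm3 bins and 23 Cirbp bins with enough counts to test, 0 were called by diffSpliceDGE of edgeR, a test of a bin relative to all other bins of the gene. Over all bins 0.000425% were called for genotype and 1.05% had an unadjusted p under 0.05, and of the bins of this pair none did. At the level of genes 0.00672% passed the Simes test, Rbm3 and Cirbp not among them. The smallest p was 0.254 for Rbm3 (bin 1, the extreme 3' end) and 0.188 for Cirbp (bin 1, an upstream first exon).

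The poison exon took 4.67, 5.25 and 7.43% of Rbm3 bin counts in congenic mice (lowest, median and highest) and 4.95, 5.58 and 7.01% in wild-type mice. The range of congenic mice thus held that of wild-type mice. Set against flanking coding bins 18 and 23, bin 20 had 36.7 ± 8.28% of their counts in the congenic group and 38.4 ± 6.71% in the wild-type group (SD, n = 8 each). This ratio is of raw counts, not corrected for bin length, and is not a level of exon inclusion. The log2 fold change of bin 20 was -0.04 (p = 0.644), and that of the intron in bin 19 was -0.10 (p = 0.312), and neither passed the diffSpliceDGE adjustment. Hnrnph1 itself averaged 361 CPM in the congenic group and 359 CPM in the wild-type group.

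By sex, bin 2, in the distal 3' end of Rbm3, took a larger share in males. The distal end is bins 1 to 3, an alternative last exon of models Rbm3-005, Rbm3-010 and Rbm3-011, almost all of it 3' UTR. Coverage there was low: bin 2 had 0.124 and bin 3 had 0.236 counts per base, against 0.315 in intron bin 24. Both are longer than bin 24, at 1806 and 425 against 275 bases, so these densities are not strictly comparable. Whether the counts of bin 2 come from use of this last exon was not tested. Bin 2, of 1806 bases (chrX:7716104-7717909), was the bin called, 1 of 25 in Rbm3, where 0.0157% of all bins were called for sex. Its share of Rbm3 counts was 0.995, 2.35 and 3.06% in males (lowest, median and highest) and 1.03, 1.45 and 2.14% in females. Male Sample_4712 was the lowest mouse of all, so the sexes overlapped, and 4 of 8 males lay above every female.

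Bin 2 had a log2 fold change of 0.61 against the rest of the gene (diffSpliceDGE p = 6.71e-07, adjusted p = 0.00929). Rbm3 as a gene passed the Simes test with an adjusted p of 0.0192, where 0.128% of 14875 genes did. Bins 1 and 3 had log2 fold changes of the same sign, 1.19 (p = 0.0101) and 0.51 (p = 0.00169), and neither passed the adjustment. Bins 21, 22, 23 and 25, toward the 5' end, had log2 fold changes of -0.38 to -0.22 and unadjusted p of 0.0166 to 0.0271. Over all bins 3.26% had an unadjusted p under 0.05 for sex.

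The call on bin 2 held with mouse Sample_4806 left out (adjusted p 0.0358) and lost with both Sample_4804 and Sample_4806 left out, where the log2 fold change was 0.55 and the adjusted p 0.368. It was also lost in each lane taken alone, where the log2 fold change was 0.56 to 0.66. Leaving out a single mouse ended the call for Sample_4671, Sample_4672, Sample_4731, Sample_4734, Sample_4738 and Sample_4804 and kept it for the other 10. The part of the cell-type markers given above in this result was not tested.

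The poison exon was not called for sex. It took 4.85, 5.87 and 7.43% of Rbm3 counts in males (lowest, median and highest) and 4.67, 5.36 and 6.24% in females, and the ranges overlapped. The log2 fold change was 0.15 (diffSpliceDGE p = 0.121 before adjustment). Its ratio to the flanking coding bins was 41.2 ± 8.07% in males and 33.9 ± 4.37% in females (SD, n = 8 each).

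In Cirbp no bin was called for sex. Bin 21, the last coding exon of the downstream end, had the smallest p, with a log2 fold change of 0.29 (diffSpliceDGE p = 0.00988 before adjustment). Its share of Cirbp counts was 2.16, 2.31 and 2.84% in males (lowest, median and highest) and 1.64, 1.95 and 2.35% in females. Bins 22 and 23, the 3' UTR of the same end, had log2 fold changes of 0.27 and 0.31 that did not reach an unadjusted p of 0.05. The retained intron, bin 16, was at 3.98 ± 0.42% in males and 3.96 ± 0.52% in females (SD, n = 8 each), and the intron in bin 20 at 3.33 ± 0.32% in males and 3.65 ± 0.35% in females.

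The other alternative bins with at least 10 counts on average were not called for either factor. In Rbm3 the proximal 3' UTR, bins 4 to 10, held 18.2 ± 1.5% of counts in males and 18.7 ± 1.03% in females, and 18.3 ± 1.33% in congenic and 18.6 ± 1.29% in wild-type mice (SD, n = 8 each). Bin 14, the added 3 bases, held 3.21 ± 0.26% in congenic and 3.25 ± 0.18% in wild-type mice. The extension in bin 11 held 0.862 ± 0.205% in males and 0.730 ± 0.154% in females, with a log2 fold change of 0.26 (p = 0.121). In Cirbp the upstream last exon, bins 17 to 19, held 25.6 ± 1.39% in congenic and 25.8 ± 1.59% in wild-type mice. The downstream end, bins 21 to 23, held 3.94 ± 0.76% in congenic and 3.98 ± 0.54% in wild-type mice. The upstream first exon in Cirbp bin 1 held 0.156 ± 0.091% in congenic and 0.201 ± 0.081% in wild-type mice.

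**Figure D4:**
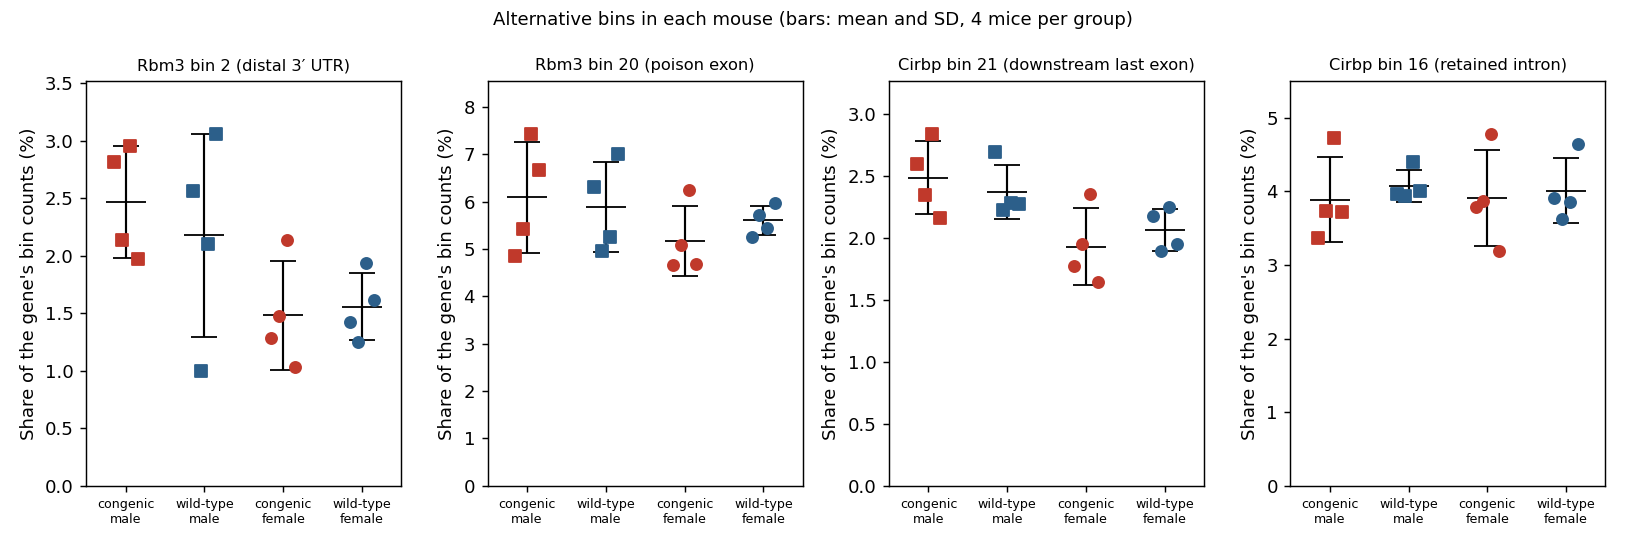
Share of a gene's bin counts in 4 alternative bins, a point per mouse with the mean and SD of 4 mice, males left and females right, congenic in red and wild-type in blue. Rbm3 bin 2 reaches 3.06% in a male and no more than 2.14% in a female, and Cirbp bin 16 averages 3.98% in males and 3.96% in females. Cirbp bin 21, titled downstream last exon, is the last coding exon of Cirbp-005 and comes before its last exon.

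Across mice, the shares of the poison exon and the introns near it were low where Rbm3 was high. The poison exon share had an r of -0.60 with the Rbm3 level and -0.66 with the Cirbp level over 16 mice (rho -0.66 and -0.64). The intron beside it, bin 19, had r of -0.63 and -0.62, and the intron in bin 24 had -0.62 with Rbm3 and -0.27 with Cirbp. Rbm3 bins 21 and 22, intron on the other side of the poison exon, had -0.52 each with Rbm3. Their r with Cirbp was 0.13 and 0.03, so the parts of this intron did not go together with the Cirbp level. Fitting out genotype and sex left the poison exon at -0.70 and -0.59. The 4 mice with the smallest poison exon share, Sample_4677, Sample_4804, Sample_4671 and Sample_4712, were all among the 6 highest for Rbm3 level. Shares of some Cirbp bins also ran against the Rbm3 level, with r of -0.72 for bin 1 (16.3 counts on average) and -0.56 and -0.46 for the introns in bins 16 and 20. Other Cirbp bins went the other way, up to 0.47 for bin 19. A negative r with the Rbm3 level was thus not particular to the poison exon or to bins of Rbm3.

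A share and a level of the same gene are made of shared counts. The relation to the other gene has no counts in common, but the libraries and their depth are shared.

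The share of the distal Rbm3 end was low where Cirbp was high. Bin 2 share had an r of -0.87 with the Cirbp level (rho -0.91) and of -0.28 with the Rbm3 level. Bins 3 and 11, the second an extension of NMD model Rbm3-006, had r of -0.78 and -0.79 with the Cirbp level. After genotype and sex were fitted out, bin 2 kept an r of -0.82 with Cirbp. Male Sample_4712 and female Sample_4739, which stood apart from their sex in Cirbp level, were the lowest male and the highest female in bin 2 share, at 0.995% and 2.14%, and another female followed at 1.93%.

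In Cirbp, the bin 21 share had an r of -0.79 with the Cirbp level and -0.22 with Rbm3. The r with Cirbp was -0.45 within males and -0.86 within females (n = 8 each), and -0.67 after genotype and sex were fitted out. Of 304 pairs of an Rbm3 bin with a Cirbp bin, bin 2 with bin 21 had the largest r in size, 0.81 (rho 0.82). Bin 11 with bin 21 followed at 0.75 and bin 3 with bin 21 at 0.73. Rbm3 bins 2, 3 and 11 went together among themselves, with r of 0.83 to 0.90, so these pairs are not separate instances. The shares of all these bins were on average higher in males, and sex was not fitted out of the values for pairs of bins. Bin 19 of Rbm3 and bin 16 of Cirbp, both intron, had an r of 0.69. Bin 19 also had an r of 0.69 with Cirbp bin 1, an upstream first exon, and of 0.36 with the intron in Cirbp bin 20. The relation was thus not particular to introns.

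**Figure D5:**
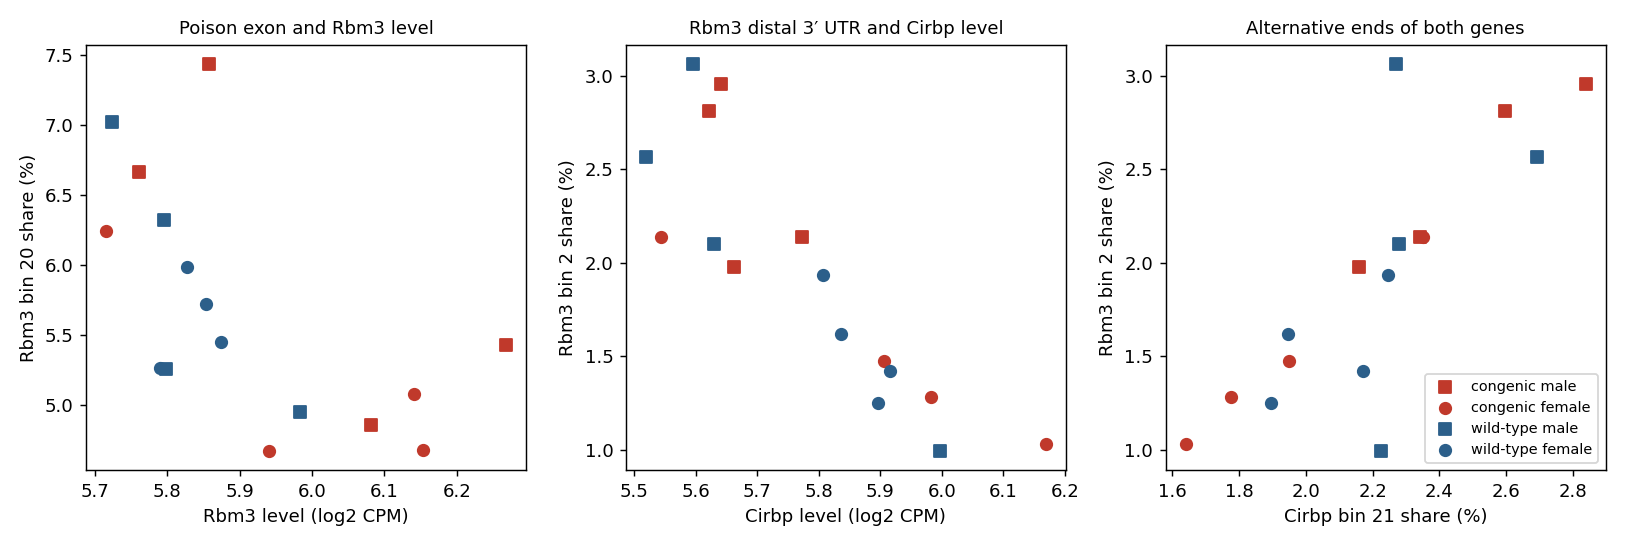
Left, share of the poison exon (Rbm3 bin 20) against the Rbm3 level in log2 CPM; middle, Rbm3 bin 2 share against the Cirbp level; right, Rbm3 bin 2 share against Cirbp bin 21 share; a point per mouse, 16 mice. The r values were -0.60, -0.87 and 0.81.

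Genes of related temperature, activity and clock pathways were set beside the pair. Heat shock genes, chaperones that rise with heat, were on average higher in males: 18 of 20 had a positive log2 fold change with a median of 0.17, against 48% and a median of -0.0049 for all genes. Hspb1 was the only one called, at 10.1 CPM in males and 6.64 CPM in females (log2 fold change 0.59, edgeR adjusted p 0.0488), where 0.138% of all genes were called for sex. That adjusted p is close to the threshold of 0.05, and the call was not rerun with mice left out. Hspa1b, Hspa8 and Dnajb1 had log2 fold changes of 0.995, 0.23 and 0.22 and adjusted p of 0.103 to 0.156. The pan-MSN and microglial markers given above were likewise higher in males and the cortical markers lower, and their part in the sex values of the heat shock genes was not tested. By genotype 6 of 20 were positive and 0 were called.

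Immediate early genes, which neurons switch on with activity, gave 16 of 18 positive for sex and 0 called, with a median log2 fold change of 0.64. Nr4a1 was at 120 CPM in males and 42.0 CPM in females (adjusted p 0.127), and Egr3, Sik1 and Egr4 had log2 fold changes of 0.37, 0.36 and 0.85. Of 22 clock genes 15 were positive with a median of 0.05 and 0 called. Per1 was at 107 CPM in males and 67.2 CPM in females (adjusted p 0.120), and Per2, Bhlhe41 and Cry1 had log2 fold changes of 0.46, 0.18 and 0.27. By genotype 14 of 18 immediate early genes and 14 of 22 clock genes were positive, and 0 were called.

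Cirbp ran against these genes across mice, but the relations did not pass the test within sex. Scores were the mean centred log2 level of a list, and 10 relations, each member with 5 lists, were tested by permutation. Cirbp had an r of -0.70 with heat shock genes (rho -0.64), -0.65 with immediate early genes (rho -0.77) and -0.65 with clock genes (rho -0.71). Unadjusted permutation p were 0.00274, 0.00614 and 0.00624, and 0.0208 after adjustment for each. For rho the adjusted permutation p were 0.0291, 0.0074 and 0.014. These tests permute all mice together, while Cirbp was lower and the lists on average higher in males. With values centred and mice permuted within sex, a test added after the data were seen, r was -0.53, -0.48 and -0.47, with adjusted permutation p of 0.17, 0.196 and 0.196.

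Without the 2 mice farthest from the median of each score the r values were -0.63, -0.68 and -0.74. They were -0.63, -0.76 and -0.59 within males and -0.49, -0.19 and -0.36 within females (n = 8 each). Fitting out genotype and sex left -0.54, -0.49 and -0.48. Rbm3 had an r of -0.54 with heat shock genes (rho -0.53, adjusted permutation p 0.0788), and its other relations were smaller. Within sex that r was -0.72 with an adjusted permutation p of 0.0402, and it was -0.84 in males and -0.50 in females. Sample_4806, low in Xist, counted as a female there and had the lowest heat shock score of all mice, -0.220. The relations within sex were not run without it. Neither gene passed with pan-MSN or cortical scores. The bin 2 share of Rbm3 had an r of 0.83 with the immediate early score, 0.90 within males and 0.28 within females, a relation looked at after the values were seen and not tested.

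Genes reported to act on the pair, or to be acted on by it, were not called. The kinases Clk1, Clk2, Clk3 and Clk4, of which CLK1 and CLK4 are known to respond to body temperature in splicing, were not called for sex or genotype. Clk1 was at 177 CPM in males and 157 CPM in females (log2 fold change 0.17, adjusted p 0.211), and the other 3 had sex values of -0.02 to 0.03. Among reported regulators, Hsf1, the heat shock transcription factor, had a sex value of 0.14 (adjusted p 0.235), Hnrnph1 0.08, Sp1 -0.09 and the warmth-sensing channel Trpv4 -0.10, and none was called. By genotype these 8 genes had log2 fold changes of -0.12 to 0.05.

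Reported RNA targets, taken mostly from work in human and mouse cells, were also uncalled. Rtn3, an mRNA whose translation RBM3 supports, averaged 747 CPM in the congenic group and 762 CPM in the wild-type group. Clock, Atr, Rpa2 and Txn1 had genotype values of -0.09 to 0.06 and sex values of -0.14 to -0.02. The related genes Rbmx, Rbmxl1 and Rbmx2, which share the RNA recognition motif, had genotype values of 0.03, 0.05 and 0.03 and sex values of 0.00064, 0.08 and -0.10. Rbmxl2 had 11 counts in all mice and was not tested.

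A promoter element of Cirbp, TCCCCGCC, was reported in mouse to bind Sp1 and to answer to mild cold. In 1 of 2 RefSeq promoter windows of Cirbp on GRCm38.p6 it occurs with its first base at position -247 from the start, in capitals.
Cirbp promoter, GRCm38.p6 (chr10:80167589-80167688): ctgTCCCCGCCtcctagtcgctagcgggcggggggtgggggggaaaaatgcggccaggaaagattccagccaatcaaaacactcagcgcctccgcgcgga
The element, searched on both strands, occurs in 5.38% of 32851 promoter windows of the same length.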

How the data were processed

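Striatal RNA of 16 mice was sequenced on 3 lanes per library. The authors deposited whole-number counts per gene and per exon bin for each lane, not normalised. Per the submitters' processing notes, the tools were HTSeq 0.6.1p1, FastQC 0.10.1, limma 3.22.7 and edgeR 3.8.6, with no role given. The aligner and the strand setting are not given in the sources used here, and the labels give both 50 bp single-end and 100 bp paired-end reads, so a count may be a read or a mate. The labels list the builds mm9 and mm10 with no role. Bins of both genes were built again from GENCODE M1 models on NCBIM37 (mm9) and numbered 33 and 23, as deposited, and coordinates are on that build, apart from the RefSeq promoter table on GRCm38.p6.

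Lanes were summed per mouse, so n counts mice. Expression was fitted on all genes with edgeR 4.0.16 in R 4.3.3 (TMM, a minimum count of 10 and total of 15 on genotype-by-sex groups, robust quasi-likelihood test, sex and genotype in the model), and bins with diffSpliceDGE on the whole bin table. Genes or bins were called at an adjusted p under 0.05 (Benjamini-Hochberg, over all genes or all bins). All tests were two-sided. Log2 levels used a prior count of 2. Correlations were computed with NumPy 2.4.6 and SciPy 1.17.1 in Python 3.11.15, with 100000 resamples for the list scores. Fits were tested on simulated data. A bin is tested against the rest of its gene, so there a change in a bin also led to calls at other bins of that gene. Alternatives were relative log expression size factors, library totals alone, no filter, DESeq2 1.42.0, limma 3.58.1 (voom and diffSplice), a single factor, a cortical score as covariate, single lanes and leaving out each mouse.

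The members, the gene lists and the tests were chosen with earlier results of these data known. Genes named were the pair, their relatives, the CLK kinases, reported regulators and targets, the 4 of smallest p for sex in the heat shock, immediate early and clock lists, and the 8 most and 4 least correlated with each member at a mean of at least 5 CPM. A few genes that this rule names are not reported here. Bins named were alternative bins with a mean of at least 10 counts and those of smallest p.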

Additional observations from a re-analysis of the deposited data

Results flagged for a closer look

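The levels of both genes and their alternative bin shares were looked at within each genotype for a mouse that stands apart, in 74 groups of 8 mice, and 2 such mice were found, where chance flags about 1 in 20 groups. The share of Cirbp bin 13, a coding bin of some models, was 7.57% in congenic mouse Sample_4733, and the other congenic mice lay between 6.65 and 7.07%. The share of Cirbp bin 22, 3' UTR of the downstream last exon, was 1.56% in wild-type mouse Sample_4672, and the other wild-type mice lay between 1.02 and 1.22%.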

How the results depend on the processing

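The genotype value of Rbm3 stayed positive and uncalled under all 27 alternatives run, at 0.12 to 0.21, and the sex value of Cirbp stayed negative and uncalled at -0.26 to -0.14, with adjusted p of 0.0832 to 0.648. The sex value of Rbm3, near 0, turned positive with relative log expression size factors (0.0014), DESeq2 (0.0014), no filter (0.00077), the cortical score as a covariate (0.015), lane 3 alone (0.045) and without mice Sample_4804 and Sample_4806 (0.022), and ranged from -0.048 to 0.032 when single mice were left out. Without mice Sample_4804 and Sample_4806 the genotype value of Cirbp was -0.031 and its interaction 0.039, and with single mice left out they ranged from -0.028 to 0.072 and from -0.17 to 0.041. The interaction of Rbm3 was -0.014 in lane 3 alone and ranged from -0.073 to 0.10 with single mice left out. The count of Rbm3 bins called for sex was 0 in lane 3, 4 or 5 alone and without mice Sample_4804 and Sample_4806, and 0 to 1 with single mice left out. It stayed at 1 with limma diffSplice, with library totals alone and with a minimum of 10 counts in every mouse. Counts of bins called were 0 for Cirbp by sex and for both genes by genotype in all alternatives. The r between Rbm3 and Cirbp stayed positive at 0.38 to 0.67. The r of Cirbp bin 21 share with the Rbm3 level was 0.025 in lane 4 alone. With the Cirbp level it was -0.50 in lane 4 and -0.54 in lane 5 alone. The r of the poison exon share was -0.45 with the Rbm3 level in lane 3 alone. With the Cirbp level it was -0.46 in lane 3 and in lane 5 alone. With values centred and permuted within sex, a test added after the data were seen, the r of Cirbp with heat shock, immediate early and clock scores was -0.53, -0.48 and -0.47 and no longer passed, that of Rbm3 with heat shock was -0.72 and passed, and the other 6 relations stayed uncalled. Sample_4806 counted as a female in that test, which was not run without it. The cause of these changes was not tested. In single lanes, fewer counts and fewer bins entered the test. No paired analysis was possible because no number is shared between the groups.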
